A study of Mus musculus with 4 samples.

Results

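Foxo1 peaks were described at Bach2, a gene on mouse chromosome 4 that carried several peaks in each of a pair of ChIP-seq lists from CD4+ T cells. Members were selected by position as the peaks whose summit lay in the gene or its 50 kb flanks, from 32.275 to 32.724 Mb of chromosome 4 (mm9). This window of 449 kb was itself chosen from the peak lists for the number of peaks it holds, so the counts of peaks in it are a description and no test was made of them. It held 8 of the 2507 peaks of the antibody list and 3 of the 723 peaks of the biotin list, 11 of 3230 in all.

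The antibody ChIP recovered DNA bound by the endogenous protein from C57BL/6 CD4+ cells with an antibody against Foxo1. The biotin ChIP used CD4+ cells of C57BL/6 mice of the Foxo1tagBirA line (written Foxo1tag/tagbirA in the design), in which a tagged Foxo1 is paired with the biotin ligase BirA, and recovered the DNA on streptavidin. Each group was 1 library, and an input library stands beside each ChIP. The age of the mice, their number, whether animals were pooled, the promoter that drives BirA and any treatment are given neither by the labels nor by the files. No value below carries a replicate error. The lists contain peaks and no expression values, so the labelled cell type could not be checked against its markers, and the read depth behind a peak is unknown.

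Bach2 is a transcriptional repressor of the BTB and basic leucine zipper family that binds DNA together with small Maf proteins. In T cells it is known to hold back effector differentiation and to favour naive, memory and regulatory states, and in B cells it delays plasma cell differentiation. Foxo1 is a forkhead transcription factor that is kept out of the nucleus when PI3K and Akt are active, and in resting T cells it is known for driving genes of homing and survival, such as the receptor for IL-7.

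All 11 peaks lay inside the gene, between its 5′ edge and its midpoint. By the rule the gene runs from 32.325 to 32.674 Mb, 349 kb in length, with edges given to the nearest 1 kb, and RefSeq places Bach2 on the plus strand, so the lower coordinate is the 5′ edge. The first 25 kb held 5 antibody and 2 biotin peaks. The stretch from there to the middle of the gene, 149.5 kb long, held 3 antibody peaks and 1 biotin peak. The gene beyond its midpoint (174.5 kb) and both flanks of 50 kb held 0 peaks of either list. Which exon or intron each peak lies in was not analysed here, as no annotation of mm9 was used.

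**Figure D1:**
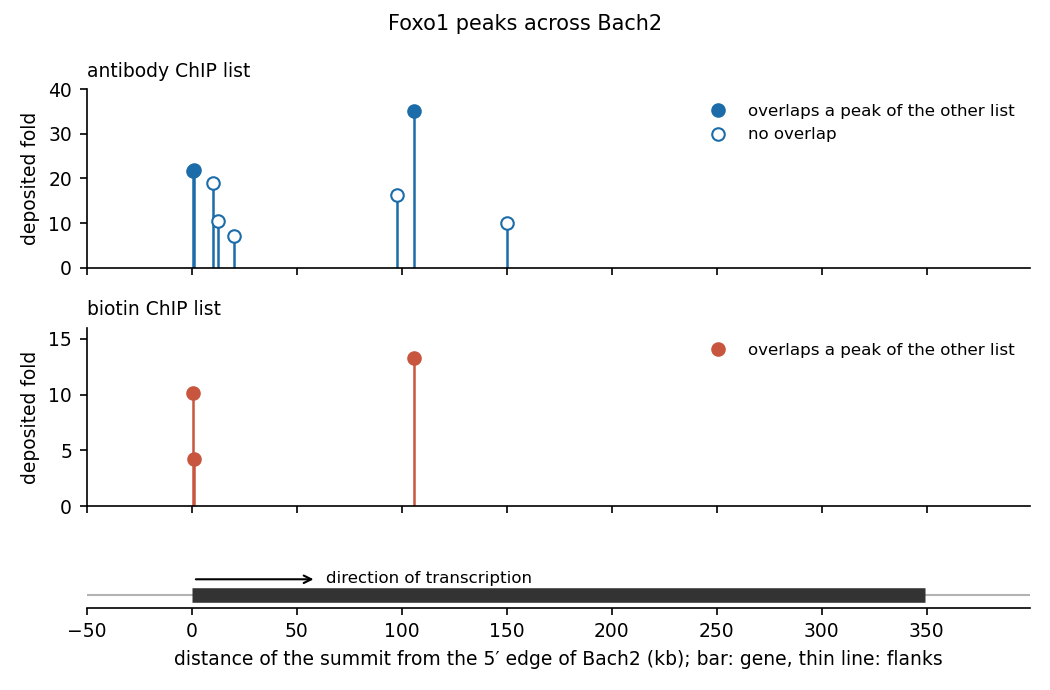
Deposited fold (y axis, linear, separate scale for each list) of each peak against the distance of its summit from the 5′ edge of Bach2 in kb (x axis); filled points overlap a peak of the other list, and the bar marks the gene with its 50 kb flanks. The peaks stand at the 5′ edge and around 100 kb into the gene, and no peak lies beyond 149.9 kb. Among the Bach2 peaks of each list, the highest fold (35.1 and 13.2) is at 106 kb.

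At the 5′ edge of Bach2, both lists had a doublet of peaks at the same positions. The first antibody peak (32325690 to 32325721) had its summit 0.70 kb past the 5′ edge, a width of 32 bp and a fold of 21.6, the ratio that the authors deposited for each peak. As that edge is rounded to 1 kb, distances this short from it are approximate. The second (32326235 to 32326309) followed with its summit at 1.28 kb, a width of 75 bp and a fold of 21.8. These antibody folds ranked 205 and 200 in the list and were nearly equal. The biotin list held a peak over each of them, at 32325633 to 32325732 with a fold of 10.2 and at 32326239 to 32326357 with a fold of 4.23. The biotin folds were unequal, ranking 78 and 567 of 723, so the second site was above 92.0% of the antibody list and above 21.6% of the biotin list. Summits of the doublet were 588 bp apart in the antibody list and 560 bp apart in the biotin list.

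A run of 3 antibody peaks without a biotin partner followed within 21 kb of the 5′ edge. The third antibody peak (32335342 to 32335388) had its summit 10.4 kb into the gene and a fold of 18.9. The fourth (32337413 to 32337479), at 12.4 kb, had a fold of 10.5. The fifth (32345225 to 32345396), at 20.4 kb, had a fold of 7.10 and was the widest antibody peak of the locus, with 172 bp. Fold thus decreased with distance along this run, and the nearest biotin peak, the second of the doublet, ended 8985, 11056 and 18868 bp before the third, the fourth and the fifth.

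The peak with the highest fold of each list at Bach2 lay deep in the gene body. The seventh antibody peak (32430881 to 32430948) had its summit 106 kb from the 5′ edge, 30.3% of the way along the gene, with a fold of 35.1. It ranked 36 in the antibody list, and 98.6% of that list had a lower fold. The biotin peak over it (32430908 to 32430951) had a fold of 13.2 and ranked 41 of 723. The sixth antibody peak (32422746 to 32422805) stood 8.15 kb upstream of it, at 97.8 kb into the gene, with a fold of 16.4 and no biotin partner. Its summit lay 77.4 kb beyond that of the fifth. The eighth and last (32474873 to 32474951), at 149.9 kb, had a fold of 9.96, and its nearest biotin peak was 43.9 kb away.

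Joined over gaps of at most 10 kb, the members formed 3 groups along Bach2. The group at the 5′ edge spanned 19.8 kb with 5 antibody and 2 biotin peaks, the intragenic group spanned 8.21 kb with 2 antibody peaks and 1 biotin peak, and the eighth antibody peak stood alone. Of the 7 distances between neighbouring antibody summits, 5 were at most 10 kb, against 252 of 2487 (10.1%) over the whole list, whose median was 249 kb. Short distances follow in part from choosing a locus with many peaks.

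Of the 8 antibody peaks in Bach2, 3 overlapped a biotin peak by at least 1 bp (37.5%, exact 95% interval 8.52 to 75.5%, counting error only), beside 13.6% of the whole antibody list. All 3 biotin peaks of the locus overlapped an antibody peak, beside 47.2% of the biotin list. With 8 and 3 peaks of a single locus the intervals are wide (the biotin one starts at 29.2%). They treat peaks as independent, although these share a locus and a library per list, and the shared ones include the doublet. The locus was also chosen from these lists for its peaks, so the shares were not tested against those of the whole lists. The 3 shared antibody peaks had folds of 21.6, 21.8 and 35.1, and the 5 without a partner had folds of 7.10 to 18.9, so the groups did not overlap. Over the rest of the antibody list the share with a partner also differed by fold. Of the 167 other antibody peaks with folds between those of the lowest and the highest shared member, 98 (58.7%, 50.8 to 66.2%) overlapped a biotin peak. Among the 1569 others within the range of the unshared members, 159 did (10.1%, 8.68 to 11.7%). Both ranges were set by the members' own folds, and peaks with folds between or outside them were not counted. These intervals also give counting error only and treat peaks as independent.

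The partners coincided closely. The antibody peak of the first pair lay wholly inside the biotin peak, with 32 bp shared and the biotin summit 18 bp downstream. In the second pair 71 bp were shared, 94.7% of the shorter peak, and the biotin summit was displaced by -10 bp, that is, upstream. In the pair at 106 kb 41 bp were shared, 93.2% of the shorter peak, with the biotin summit 16 bp downstream. The median distance of 16 bp for these 3 pairs stood beside 20 bp for all 341 pairs of the series, and overlap of narrow peaks keeps summits close by itself. The deposited common list, attached to the antibody input, held 6 intervals of the window, and these were the 3 pairs.

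**Figure D2:**
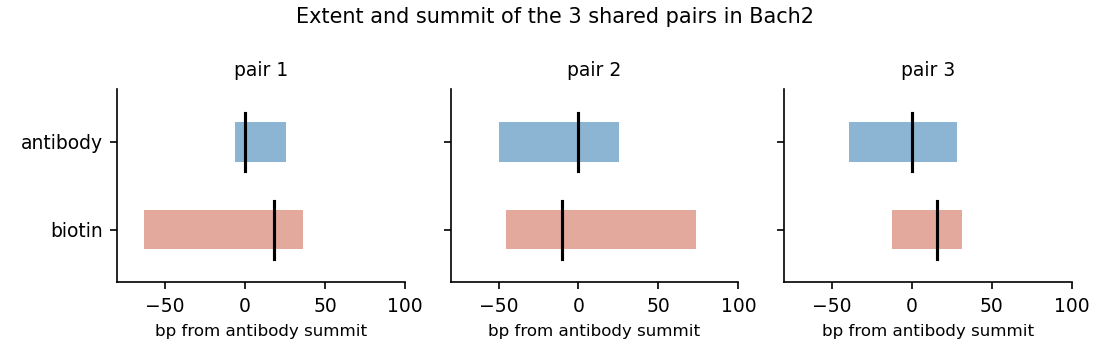
Extent (bars) and summit (black line) of the antibody and biotin peaks of the 3 shared pairs in Bach2, in bp from the antibody summit (x axis); pairs are numbered from the 5′ edge. The biotin summits lie at 18, -10 and 16 bp, and the antibody peak of pair 1 lies inside its partner.

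Within their lists, the folds of the Bach2 peaks ran from low to high. The 8 antibody peaks had a median fold of 17.6 (7.10 to 35.1), beside 9.43 over the whole list, and 7 of 8 were above that median. In the top 25% of the list by fold stood 5 of the 8, namely the doublet, the third, the sixth and the seventh. Of these 5, 3 had a biotin partner, beside 37.3% of all antibody peaks in that top 25%. The other 3 had 0 partners, beside 5.69% of antibody peaks below it. The 3 biotin peaks had folds of 4.23, 10.2 and 13.2, beside a median of 5.61 over their list, and 2 of 3 stood in its top 25%. The p-value deposited by the authors was listed as 0 for 4 of the 8 antibody peaks (16.2% of the list) and for 1 of the 3 biotin peaks (20.1%). Those 4 were the doublet, the sixth and the seventh, and the largest deposited p-value among the antibody members was 2.70e-14, at the fourth.

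**Figure D3:**
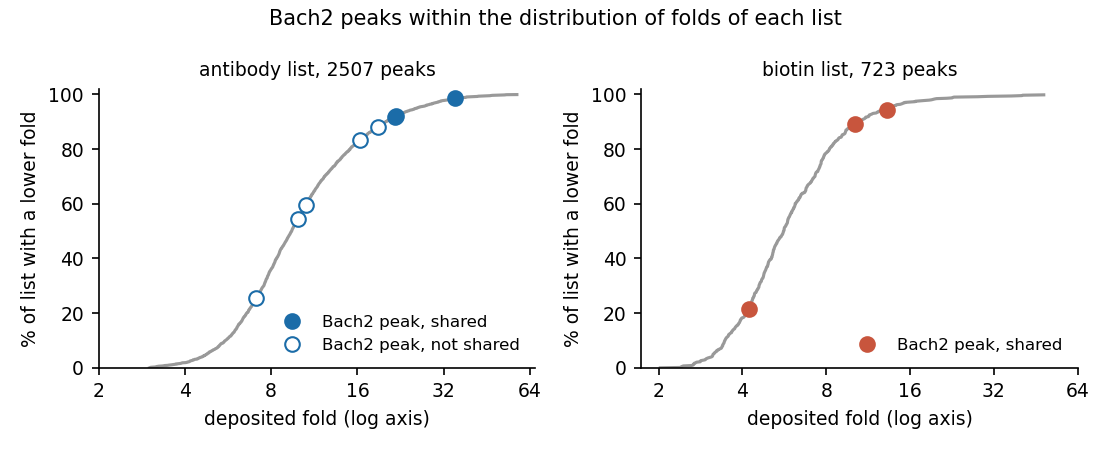
Share of each list with a lower fold (y axis, %) against the deposited fold (x axis, log axis), with the whole list as a line and the Bach2 peaks as points, filled where they overlap a peak of the other list. The 3 shared antibody peaks are the highest of the 8, and the shared biotin peaks include one at 21.6% of its list.

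Most antibody peaks at Bach2 were narrow. Their median width was 67.5 bp beside 90 bp over the list, and 7 of 8 were narrower than that median, the fifth being the exception. The biotin peaks were 100, 119 and 44 bp wide, beside a median of 84 bp. Together the antibody members covered 600 bp and the biotin members 263 bp of the 449 kb window.

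No member lay near the limits of the window. The nearest antibody peak before the window (32142269 to 32142354) was 132.7 kb outside it, with a fold of 5.01 and no biotin partner. After it, the nearest (33334915 to 33334942) was 611 kb outside, with a fold of 44.6, and it had a biotin partner with a fold of 37.0. In the biotin list the nearest peak before the window was 21026 kb outside it. The window held 5.63% of the 142 antibody peaks of chromosome 4 and 3 of its 50 biotin peaks.

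Bach2 was among the most crowded places of the antibody list, which is what chose it. Of all antibody peaks, 1.87% (47 of 2507) had at least 8 peaks of the list in a window of this length centred on them. Of biotin peaks, 8.71% had at least 3 of theirs. Both shares include all the Bach2 members themselves. When windows of the same length were started at antibody summits and taken without overlap from the fullest down, and windows over Bach2 were left out, 5 held more antibody peaks than the 8 at Bach2 and 4 held as many. Such windows are placed to hold as many peaks as possible, whereas that of Bach2 is fixed by the gene. Placed in the same way, a window over Bach2 took in the unshared antibody peak before it (32142269 to 32142354) and held 9, with 2 windows above it and 3 level with it. The fullest, on chromosome 17 (summits from 84403750 to 84818883), held 13 antibody peaks with a median fold of 8.60 and 1 shared pair. The next, on chromosome 8 (74655995 to 75095123), held 10 with a median fold of 10.4 and 2 shared pairs. The remaining 3 windows, a pair on chromosome 10 and one on chromosome 7, held 9 each, with median folds of 7.78 to 12.2 and 0 to 2 shared pairs. The 8 Bach2 peaks had a higher median fold than any of these 5 windows, 17.6, or 16.4 over the 9 of the window placed in the same way. They had 3 shared pairs. The 5 windows were picked by antibody peaks alone, and no window was sought by shared pairs. Started at a biotin summit, a window of this length held up to 5 biotin peaks, beside 3 at Bach2. The 9 peaks spanned 333 kb, and those of the 5 windows spanned 277 to 439 kb. These differences between single loci were not tested, and the 4 windows that held as many as 8 were not compared by fold or shared pairs.

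**Figure D4:**
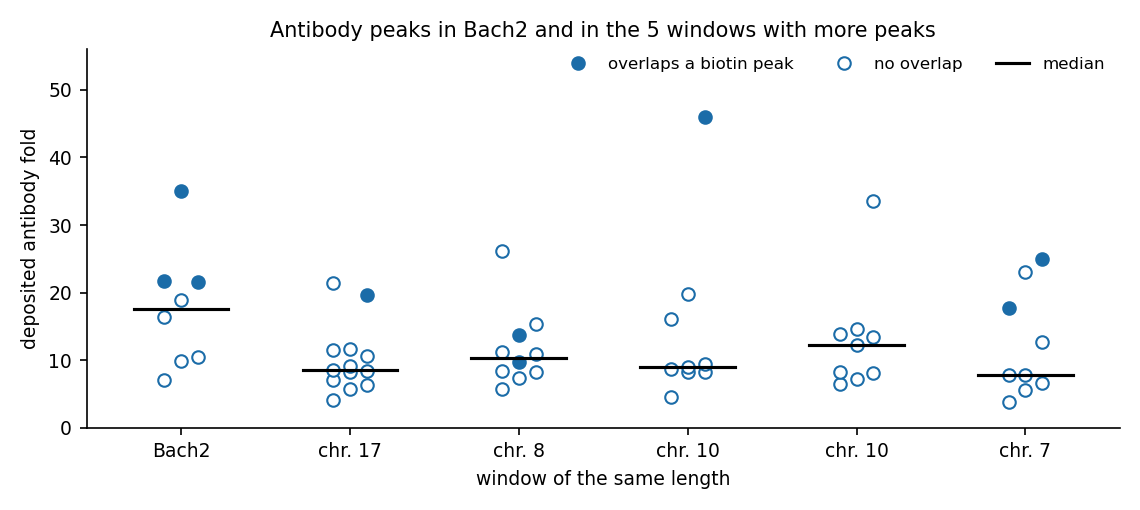
Deposited antibody fold (y axis) of each peak in the Bach2 window and in the 5 windows of the same length with more antibody peaks than the gene's own window, named by chromosome (x axis); filled points overlap a biotin peak and lines mark medians. The median is 17.6 at Bach2 and 7.78 to 12.2 in the others, while the highest single fold, 45.9, is in a window on chromosome 10.

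The bases under the peaks were not read, since no mm9 genome was used here. In the 1 promoter that the RefSeq table of GRCm38 lists for Bach2 (300 bases around a transcript start), the forkhead letters TGTTTAC and TGTTTGC were searched on both strands. Neither was found there, and 8.48% of the 32851 promoters in the table held at least one. That promoter was not placed relative to the mm9 peaks, so the search says nothing about them.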

How the data were processed

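Peak lists of the antibody and the biotin ChIP were used, with the list attached to the antibody input, and no list of the biotin input. Reads had been handled with CASAVA 1.4 and Bowtie 0.12.7 on mm9, per the submitters' processing notes. The sources used here name neither the peak caller nor what the fold is relative to. Each peak's fold, a linear ratio, and its p-value are the authors' own values as deposited, with a false discovery rate of 0.05 in the file names. Folds were ranked within a list and not compared between lists. Starts were raised by 1, so that positions count from 1.

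With Python 3.11.15, pandas 2.3.3 and scipy 1.17.1, members were taken by summit, every member was named, and partners needed an overlap of at least 1 bp. The overlap code was checked on simulated lists. No test was run, since each group is 1 library. The alternatives were other flanks, definitions of a partner, joining distances, and the top 50% and 25% by fold. The locus, its window and the quantities described were chosen with earlier results of these data known.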

Additional observations from a re-analysis of the deposited data

How the results depend on the processing

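Of 29 values recomputed, 26 were counted as staying, that is, counts within 1.5 times the value given above and medians of fold unchanged. A fall from 3 to 2 just meets that limit, so some of the 26 did change. Flanks of 0 or 100 kb, members taken by any overlap, and partners defined by 50% of the shorter peak, by summits within 200 bp or by peaks within 1000 bp gave the same 8, 3 and 3 peaks. In the top 25% of the list by fold 5 antibody peaks remained, and joining over at most 5 kb gave 6 groups in place of 3. Both follow from the stricter settings. A window placed to hold the most antibody peaks, an alternative chosen after seeing the data, gave 9 antibody peaks with a median fold of 16.4 and the same number of biotin peaks. In the top 50% or 25% of each list, 2 shared pairs were left, since the second biotin peak (fold 4.23) dropped out. No paired analysis was possible because there are no replicates, and no library was left out for the same reason. Without the depth, an antibody peak with no biotin partner does not show that biotin signal was absent there.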

Other observations

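The doublet at the 5′ edge of Bach2 was 1 of 3 places in the series with 2 shared pairs whose antibody summits lay within 1000 bp of each other. The others lay on chromosome 2 (156005280 to 156005933) and on chromosome 4 (33334915 to 33335562), and the latter holds the first antibody peak after the Bach2 window. Summit distances at the 3 places were 588, 607 and 592 bp in the antibody list and 560, 596 and 621 bp in the biotin list. Among all 111 neighbouring antibody summits within 1000 bp, the median distance was 437 bp (interquartile range 259 to 657.5 bp). A distance of 588 to 607 bp was found for 5 of them. The 3 places themselves set that range and are counted among the 5. On chromosome 2 the antibody folds were 21.2 and 14.0 and the biotin folds 4.48 and 7.52. At the other place on chromosome 4 the antibody folds were 44.6 and 17.9 and the biotin folds 37.0 and 7.01. At Bach2 the antibody folds were nearly equal (21.6 and 21.8) and the biotin folds were 10.2 and 4.23. The first peak had the higher fold in both lists at the other place on chromosome 4, in the antibody list alone on chromosome 2 and in the biotin list alone at Bach2. This pattern was noticed in the data and was not tested.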
